A study of Mus musculus with 9 samples.

Results

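The 10 genes described here make, conjugate, move or regulate bile acids in the liver: Cyp7a1, Hsd3b7, Cyp8b1 and Cyp27a1 (synthesis), Slc27a5 and Baat (conjugation), Slc10a1 and Abcb11 (transport), and Nr0b2 and Nr1h4 (regulation). They were chosen by name and are 10 of the 26388 genes listed in the deposited tables. Their level in a liver is the number of unique molecular identifiers (UMIs, each counted as 1 captured transcript) summed over all cell barcodes with at least 200 genes, per 1000000 UMIs of that liver (CPM). The study profiled livers by Drop-seq, a droplet method that tags the transcripts of single cells with a barcode, after a vector or saline had been given into the blood. The 9 mice were wild-type male C57BL/6 of 8 weeks. Of these, 3 received AAVrh.10Null (mice 2, 5 and 8) and 3 received AAVrh.10mCherry (mice 3, 6 and 9), both adeno-associated virus vectors of serotype rh.10. The other 3 received PBS (mice 1, 4 and 7). The dose, the time after injection and the sequence carried by the vectors are not given in the sources used here, and each liver is 1 library from 1 mouse.

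Bile acids are made from cholesterol in hepatocytes. In the classic pathway Cyp7a1 adds the first hydroxyl group and limits the rate, Hsd3b7 oxidises the product and Cyp8b1 adds the hydroxyl group that gives cholic acid. Cyp27a1 oxidises the side chain and also starts the alternative pathway. Slc27a5 and Baat then join the acid to coenzyme A and to an amino acid, Abcb11 exports the conjugates into bile and Slc10a1 takes returning bile acids up from blood. Bile acids bind the nuclear receptor Nr1h4 (FXR), which raises Nr0b2 (SHP) and Abcb11 and lowers Cyp7a1 and Cyp8b1.

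The 10 genes lie on 7 chromosomes of the mm10 (GRCm38) build, all as protein-coding genes of GENCODE M21. Cyp8b1 lies at chr9:121914356-121916305, Abcb11 at chr2:69238282-69342616 and Nr0b2 at chr4:133553376-133556536. Slc27a5 lies at chr7:12988346-12998192, Cyp7a1 at chr4:6265612-6275633 and Nr1h4 at chr10:89454234-89533585. Cyp27a1 lies at chr1:74713574-74737892, Baat at chr4:49489422-49506557, Slc10a1 at chr12:80953183-80968705 and Hsd3b7 at chr7:127800604-127803802. Hsd3b7 overlaps 2 other annotated genes, Gm49388 on its own strand and 9430064I24Rik on the opposite one, and Abcb11 overlaps the antisense gene Gm13613 and a pseudogene, Gm13614. Whether the counting used strand is not given in the sources used here, so the counts of Hsd3b7 and Abcb11 may include reads of these neighbours.

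RefSeq promoter windows (250 bases before to 50 bases after a start, GRCm38.p6) were at hand for 7 of the 10 genes. The windows of Cyp8b1, Abcb11 and Nr0b2 are shown because these genes carry the bile acid feedback, and Cyp8b1 and Abcb11 also gave the values that separated groups below. They read 5′ to 3′ along each gene's own strand, and capitals mark the motif named after them.
Cyp8b1: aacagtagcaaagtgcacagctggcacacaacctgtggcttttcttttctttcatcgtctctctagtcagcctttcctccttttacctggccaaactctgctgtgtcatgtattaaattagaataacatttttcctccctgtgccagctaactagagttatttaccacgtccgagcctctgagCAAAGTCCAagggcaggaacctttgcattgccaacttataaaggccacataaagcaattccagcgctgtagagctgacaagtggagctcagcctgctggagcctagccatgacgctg
Abcb11: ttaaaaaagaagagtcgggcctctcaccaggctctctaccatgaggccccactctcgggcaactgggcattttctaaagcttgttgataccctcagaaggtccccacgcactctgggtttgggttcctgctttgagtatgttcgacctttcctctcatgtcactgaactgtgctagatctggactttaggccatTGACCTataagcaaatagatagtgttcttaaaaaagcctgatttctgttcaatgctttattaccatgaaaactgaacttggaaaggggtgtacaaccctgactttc
Nr0b2: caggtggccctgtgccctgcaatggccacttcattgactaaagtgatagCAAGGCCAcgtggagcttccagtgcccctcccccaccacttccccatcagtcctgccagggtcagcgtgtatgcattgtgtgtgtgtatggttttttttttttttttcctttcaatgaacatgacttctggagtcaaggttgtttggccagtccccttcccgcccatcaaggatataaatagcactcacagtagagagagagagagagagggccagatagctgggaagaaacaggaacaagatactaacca
The Cyp8b1 window (chr9:121916256-121916555, minus strand) holds CAAAGTCCA, a form of the site bound by the hepatocyte factor HNF4A. Searched on both strands, this motif stood in 0.475% of all 32851 windows. The Abcb11 window (chr2:69342567-69342866, minus strand) holds the nuclear receptor hexamer AGGTCA, on the reverse strand as TGACCT, a motif of 16.3% of windows. In the Nr0b2 window (chr4:133553126-133553425, plus strand) stands CAAGGCCA, a form of the site bound by NR5A2 (LRH-1), found in 2.40% of windows. The inverted repeat AGGTCANTGACCT, a form of the element bound by Nr1h4, was in none of the windows of these genes and in 0.00913% of all windows. These letters are matches in a window and were not measured as bound.

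The libraries were uneven in depth. After the cut at 200 genes, 44898 of 48000 barcodes remained, with 291338 to 11220147 UMIs per liver. The lowest was mouse 7 (PBS), where 550 of 3600 barcodes passed and 1 UMI was worth 3.43 CPM. It gave 461 UMIs over the 10 genes, against 9534 to 25738 in each other liver. Mouse 6 (AAVrh.10mCherry) stood apart in content, as given below. The libraries of mice 2 and 8 (AAVrh.10Null) held 7 and 20 barcodes ending in the letter N, against 174 to 1735 in the others. Pairs of libraries shared at most 6 barcodes. The hepatocyte list (8 genes, Alb among them) made up 103585 to 151614 CPM in every liver, as the label of liver calls for. Cholangiocyte genes, the other liver cells that handle bile acids, summed to 26.6 to 80.1 CPM, with Cftr at 0 in 6 livers. Mitochondrial genes took 3.43% to 17.8% of the UMIs, most in mice 6 and 8, and the nuclear RNA Malat1 stood at 2769 to 23010 CPM, highest in mice 2, 7 and 8. Red cell genes summed to 59.9 to 2471 CPM and genes of isolation stress to 223 to 2588 CPM; their part in the values below was not tested. In sums of this kind, fewer cells that express a gene and less RNA per cell cannot be told apart.

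No gene of the 10 changed between groups at an adjusted p below 0.05. This held for each vector group against PBS, for the mean of both against PBS and for AAVrh.10mCherry against AAVrh.10Null. The test was edgeR's quasi-likelihood test on the summed counts, with Benjamini-Hochberg adjustment over 11321 genes. Differences below are log2 estimates of that fit, after scaling for library composition, while levels are plain CPM. Without that scaling the median of all genes stood at 0.16 for AAVrh.10mCherry minus PBS and 0.11 for AAVrh.10mCherry minus AAVrh.10Null, so plain CPM values of AAVrh.10mCherry livers lie slightly high beside the fit. The share of all genes called was 0.0177% for AAVrh.10mCherry against AAVrh.10Null and 0% for each comparison with PBS. The 2 genes called between the vector groups, Snhg20 and AI480526, were named after their values were seen and are no bile acid genes. At an unadjusted p below 0.05, Abcb11 was higher in AAVrh.10Null than in PBS livers and 0 of the 10 genes were lower, beside 9.22% and 3.43% of all genes. In AAVrh.10mCherry against PBS 0 were higher and 2 lower (Cyp8b1 and Slc27a5), beside 4.26% and 2.06%. For AAVrh.10mCherry against AAVrh.10Null 0 were higher and 1 lower (Slc27a5), beside 2.54% and 4.61%. In the mean of both vector groups against PBS none of the 10 passed, beside 7.41% higher and 3.28% lower. DESeq2 called 0 of the 10 in each comparison as well, while over the whole table it called 44 genes for AAVrh.10Null minus PBS, 2 for AAVrh.10mCherry minus PBS, 7 for the mean of both and 0 between the vector groups. Limma-voom called 0 of the 10, and 0 genes in all. With 3 livers against 3, a test on one gene alone by exact permutation could not go below p = 0.1.

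**Figure D1:**
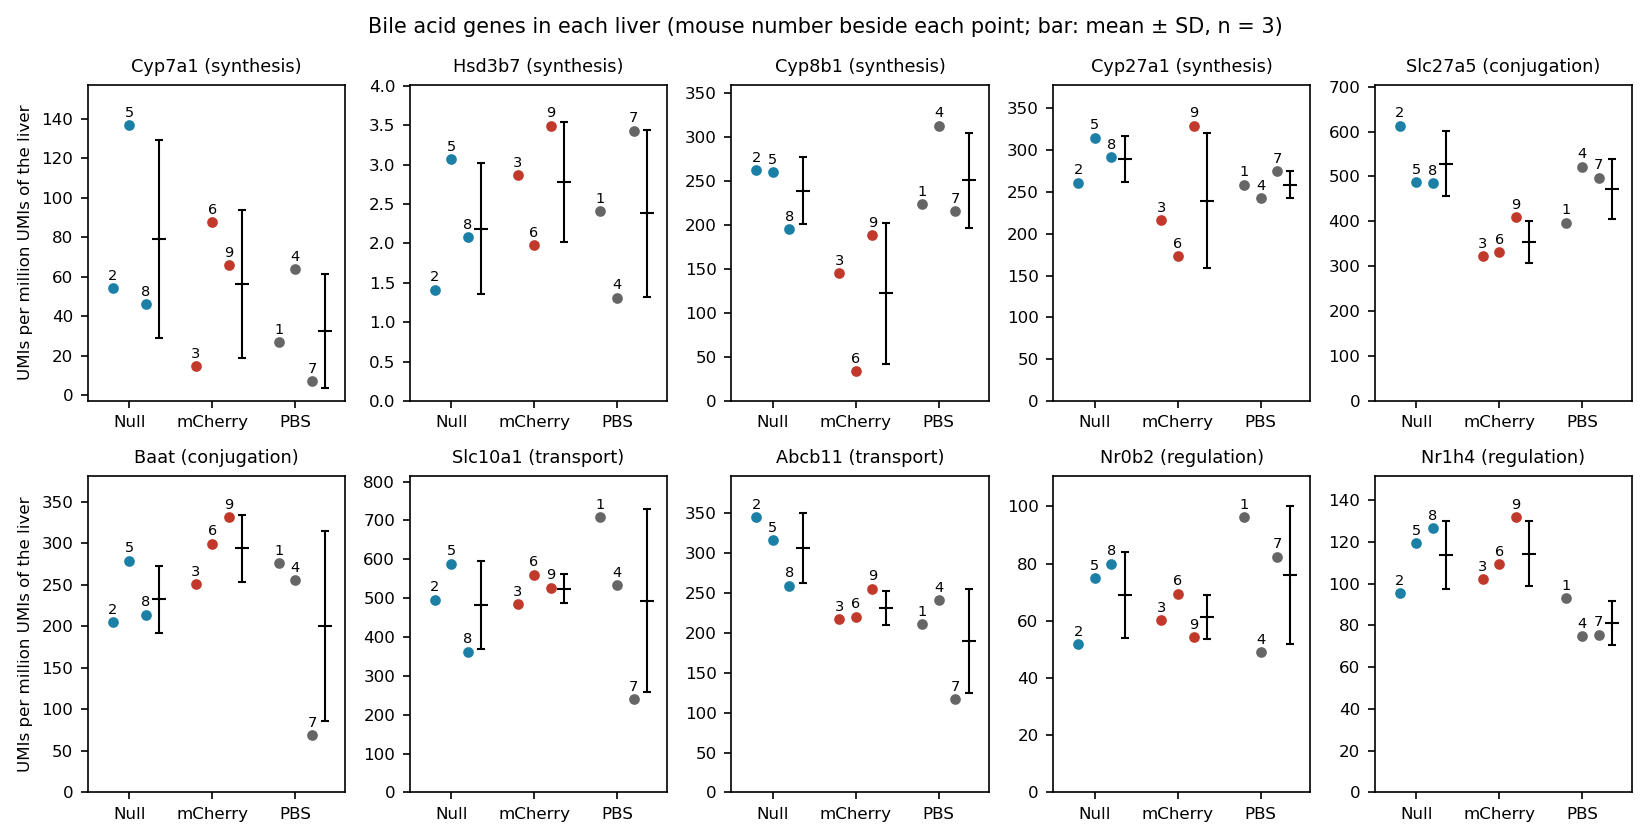
Level of each gene (CPM, linear axis) in every liver, with AAVrh.10Null, AAVrh.10mCherry and PBS from left to right. Points are livers with their mouse number and the bar is the mean ± SD of 3 livers. Mouse 6 is lowest for Cyp8b1 at 33.6 CPM and mouse 7 is lowest for Cyp7a1, Baat, Slc10a1 and Abcb11.

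Among the synthesis genes, Cyp7a1 varied most from liver to liver. It stood at 54.2, 136.7 and 45.9 CPM in AAVrh.10Null livers, at 14.7, 87.6 and 65.8 CPM in AAVrh.10mCherry livers and at 26.9, 63.8 and 6.86 CPM in PBS livers. The coefficient of variation over the 9 livers was 71.5%, the highest of the 10 genes, against 18.5% for Cyp27a1, the lowest. All 3 groups overlapped. The lowest value, in mouse 7, rested on 2 UMIs (95% Poisson interval 0.831 to 24.8 CPM, counting error only). Without that library the levels still spanned 9.32-fold. Counting error does not cover this spread: mouse 5 had 579 UMIs (126 to 148 CPM by the same interval) and mouse 3 had 87 (11.7 to 18.1 CPM). The fitted difference of AAVrh.10Null minus PBS was 1.02 on the log2 scale (SE 0.80, adjusted p = 0.611). It was 0.35 without mouse 5 and 1.79 without mouse 4.

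Cyp7a1 is known to cycle over the day. The clock genes differed between livers within groups, with Dbp, a gene of daily output, at 69.3, 6.85 and 50.7 CPM in AAVrh.10Null livers, 8.26, 75.2 and 10.3 CPM in AAVrh.10mCherry livers, and 15.8, 3.38 and 0 CPM in PBS livers. The 13-gene clock list summed to between 219.2 and 356.7 CPM in AAVrh.10Null livers, 204.8 and 424.2 CPM in AAVrh.10mCherry livers and 120.1 and 199.7 CPM in PBS livers. In AAVrh.10Null minus PBS its median log2 difference was 1.06, with 10 of 12 tested genes above 0 and 6 at an unadjusted p below 0.05, although 0 passed adjustment; of all genes 48.8% were above 0 and 12.6% past that p. In AAVrh.10mCherry minus PBS the median was 0.90, with 10 of 12 above 0 and 2 past that p, beside 51.8% and 6.32% of all genes. Mouse 5, highest for Cyp7a1, was low for Dbp, but its clock list sum of 219.2 CPM lay above every PBS liver. Mouse 6, second for Cyp7a1, was highest for Dbp and for the list sum (424.2 CPM). The part of sampling time in the Cyp7a1 values was not tested.

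Cyp8b1 was lower in every AAVrh.10mCherry liver than in every other liver. It read 145.3, 33.6 and 188.9 CPM in the AAVrh.10mCherry livers of mice 3, 6 and 9, against 262.5, 260.0 and 195.1 CPM in AAVrh.10Null livers and 223.6, 313.2 and 216.2 CPM in PBS livers. The means were 122.6 ± 80.1 CPM in AAVrh.10mCherry livers, 239.2 ± 38.2 CPM in AAVrh.10Null livers and 251 ± 54.0 CPM in PBS livers (SD, n = 3 each). AAVrh.10mCherry minus PBS was -1.16 (SE 0.49, adjusted p = 0.735 by edgeR), and -0.70 without mouse 6. AAVrh.10mCherry minus AAVrh.10Null was -1.05 (SE 0.49, adjusted p = 0.706), and -0.60 without mouse 6. Mouse 9 lay only a little under mouse 8 in plain CPM, so the gap between the vector groups was narrow on that scale. After scaling for library composition mouse 9 stood at 176.4 CPM and mouse 8 at 209.5 CPM. Mouse 6 set much of the size of both differences. A list of 8 male-biased liver genes lay below 0 throughout in both comparisons, beside 51.8% and 50% of all genes above 0. Its median was -1.07 for AAVrh.10mCherry minus PBS and -1.02 for AAVrh.10mCherry minus AAVrh.10Null. The list was drawn up after its values were seen, so this is no independent result. Summed over the list, mouse 6 stood at 1531 CPM against 13050 to 35457 CPM in the other livers. The 8 hepatocyte genes also lay below 0 in AAVrh.10mCherry minus PBS (median -0.35). In AAVrh.10Null minus PBS 7 of the 8 did so too (median -0.25), beside 48.8% of all genes above 0. Between the vector groups 7 of the 8 were lower in AAVrh.10mCherry livers (median -0.15). The part of these lists in the differences of Cyp8b1 and Slc27a5 was not tested.

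Cyp27a1 and Hsd3b7 showed no separation of groups. Cyp27a1 averaged 289.4 ± 27.0 CPM in AAVrh.10Null livers, 239.5 ± 80.6 CPM in AAVrh.10mCherry livers and 258.6 ± 16.1 CPM in PBS livers (SD, n = 3 each). Its fitted difference was 0.15 for AAVrh.10Null minus PBS (95% interval -0.40 to 0.70) and -0.23 for AAVrh.10mCherry minus PBS (-0.79 to 0.32). Hsd3b7 was sparse, with 127 UMIs over all livers and 1.31 to 3.49 CPM. At this depth its intervals, -1.04 to 1.18 for AAVrh.10Null minus PBS and -0.73 to 1.41 for AAVrh.10mCherry minus PBS, were wide and took in 0.

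Of the conjugation genes, Slc27a5 separated the vector groups. Slc27a5, the bile acid coenzyme A ligase, read 322.4, 330.8 and 408.8 CPM in AAVrh.10mCherry livers, against 613.0, 487.7 and 485.6 CPM in AAVrh.10Null livers. These groups did not overlap, and all 3 AAVrh.10mCherry livers were lower. The difference was -0.68 (SE 0.22, unadjusted p = 0.00722, adjusted p = 0.610), the smallest unadjusted p of the 10 genes in any comparison of groups. PBS livers read 397.2, 521.5 and 497.7 CPM, of which mouse 1 fell within the AAVrh.10mCherry range in plain CPM. After scaling it stood at 423.3 CPM, above the AAVrh.10mCherry livers at 318.7, 304.5 and 381.6 CPM, so those groups then did not overlap either. AAVrh.10mCherry minus PBS was -0.54 (SE 0.22, adjusted p = 0.735). Leaving out any 1 liver kept AAVrh.10mCherry minus AAVrh.10Null between -0.79 and -0.62, so for this gene mouse 6 did not set the size.

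Baat, the conjugating acyltransferase, stood at 294.2 ± 40.4 CPM in AAVrh.10mCherry livers, 232.7 ± 40.5 CPM in AAVrh.10Null livers and 200.3 ± 114.4 CPM in PBS livers (SD, n = 3 each). The wide PBS spread came from 68.6 CPM in mouse 7, beside 276.2 CPM in mouse 1 and 256.0 CPM in mouse 4. Without mouse 7, AAVrh.10mCherry minus PBS was -0.02, against 0.35 with it (SE 0.38, adjusted p = 0.821).

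Of the transporters, Abcb11 separated AAVrh.10Null livers from both other groups. Abcb11, the bile salt export pump, read 345.2, 316.7 and 259.3 CPM in AAVrh.10Null livers, against 211.2, 241.2 and 116.7 CPM in PBS livers. AAVrh.10mCherry livers, at 217.2, 220.6 and 255.6 CPM, overlapped the PBS livers. The lowest AAVrh.10Null liver, mouse 8, was thus just above the highest AAVrh.10mCherry liver, mouse 9, in plain CPM. After scaling for library composition they stood at 278.4 and 238.5 CPM. AAVrh.10Null minus PBS was 0.63 (SE 0.26, 95% interval 0.06 to 1.19, adjusted p = 0.346), and 0.40 without mouse 7. AAVrh.10mCherry minus AAVrh.10Null was -0.51 (SE 0.26, adjusted p = 0.711).

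Slc10a1, the sodium-dependent uptake transporter, did not separate groups. It read 496.4, 588.8 and 362.1 CPM in AAVrh.10Null livers, 485.2, 560.3 and 527.4 CPM in AAVrh.10mCherry livers, and 708.3, 532.8 and 240.3 CPM in PBS livers. PBS livers held both the highest and the lowest value of all 9. The fitted differences from PBS were -0.09 for AAVrh.10Null (95% interval -0.80 to 0.62) and -0.08 for AAVrh.10mCherry (-0.79 to 0.64), and both changed sign when PBS mouse 1 was left out; the second also did so without composition scaling.

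In plain CPM the receptor Nr1h4 was higher in all 6 vector livers than in any PBS liver. After composition scaling only the AAVrh.10mCherry livers all lay above PBS, by a very small gap. In plain CPM Nr1h4 read 95.4, 119.3 and 126.6 CPM in AAVrh.10Null livers and 102.0, 109.2 and 131.7 CPM in AAVrh.10mCherry livers. PBS livers read 93.1, 74.8 and 75.5 CPM. The gap between mouse 2 (AAVrh.10Null) and mouse 1 (PBS) was small: their 95% Poisson intervals overlap, at 87.6 to 104 CPM in mouse 2 and 87.6 to 99.0 CPM in mouse 1. On the scaled levels that the fit uses their order turned, with 90.9 CPM in mouse 2 and 99.3 CPM in mouse 1, so AAVrh.10Null and PBS livers then overlapped. The scaled levels of AAVrh.10mCherry mice 3, 6 and 9 were 100.8, 100.5 and 123.0 CPM. Mice 3 and 6 thus lay only just above PBS mouse 1. The mean of both vector groups minus PBS was 0.40 (SE 0.21, 95% interval -0.05 to 0.84, adjusted p = 0.509). AAVrh.10Null minus PBS was 0.45 (SE 0.23, adjusted p = 0.435) and AAVrh.10mCherry minus PBS was 0.34 (SE 0.23, adjusted p = 0.751); these comparisons share the PBS livers.

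Nr0b2, the repressor that Nr1h4 raises, did not separate groups. Its mean was 68.9 ± 15.0 CPM in AAVrh.10Null livers, 61.3 ± 7.64 CPM in AAVrh.10mCherry livers and 75.9 ± 24.2 CPM in PBS livers (SD, n = 3 each). The 3 groups overlapped, with the highest value in PBS mouse 1 (96.2 CPM) and the lowest in PBS mouse 4 (49.1 CPM). Differences from PBS were -0.14 for AAVrh.10Null (SE 0.29, adjusted p = 0.868) and -0.43 for AAVrh.10mCherry (SE 0.29, adjusted p = 0.748).

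**Figure D2:**
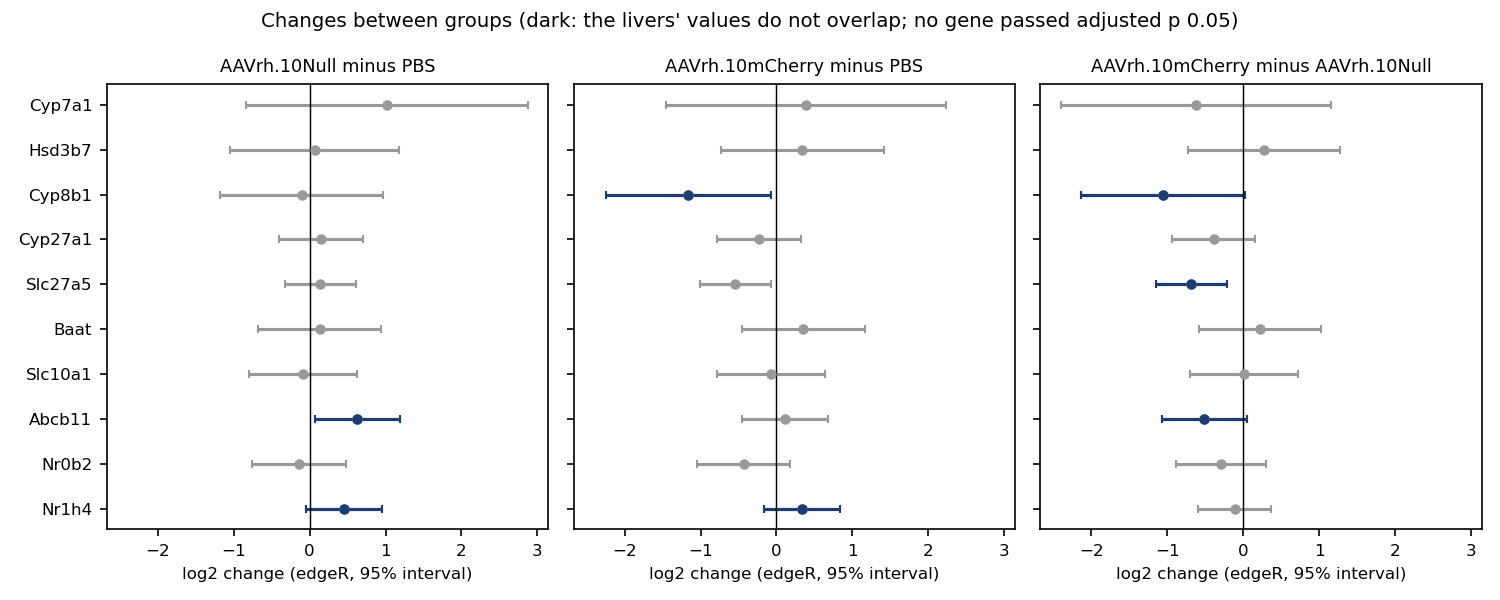
Log2 difference of each gene between groups (edgeR estimate with 95% interval; horizontal axis in log2 units, genes from top to bottom by role). Dark points mark genes whose livers do not overlap between the groups in plain CPM; the intervals of Cyp7a1 are the widest and no gene passed an adjusted p of 0.05.

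Counted over the 10 genes in plain CPM, 2 stood above PBS without overlap in AAVrh.10Null livers (Abcb11 and Nr1h4) and 0 stood below; among all genes tested the shares were 12.3% above and 6.87% below. In AAVrh.10mCherry livers 1 gene was above PBS (Nr1h4; 14.4% of all genes) and 1 below (Cyp8b1; 2.37%). Between the vector groups 3 genes were lower in AAVrh.10mCherry livers (Cyp8b1, Slc27a5 and Abcb11; 4.55% of all genes) and 0 were higher (12.0%). Over all 6 vector livers 1 gene was above PBS (Nr1h4; 6.24% of all genes) and 0 below (1.08%). On scaled levels, an alternative chosen after seeing the data, Nr1h4 no longer separated AAVrh.10Null or all 6 vector livers from PBS. The counts were then 1 above PBS for AAVrh.10Null (11.7% of all genes) and 0 above for all 6 (4.37%). Slc27a5 joined Cyp8b1 below PBS in AAVrh.10mCherry livers, which made 2 genes (4.81% of all genes). The 3 genes that were lower in AAVrh.10mCherry than in AAVrh.10Null livers were the same, beside 8.04% of all genes. The median log2 difference of the 10 genes was 0.14 for AAVrh.10Null minus PBS, 0.02 for AAVrh.10mCherry minus PBS and -0.34 for AAVrh.10mCherry minus AAVrh.10Null, beside -0.01, 0.02 and 0.00 over all genes tested.

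The wider pathway was read from a list of 42 further genes, of which 40 were listed in the tables and 36 were tested. None passed adjustment in any of the comparisons (edgeR; 0 also by DESeq2 and limma-voom), with 2 to 4 genes at an unadjusted p below 0.05 in each. The share of all genes past that p was 12.6% for AAVrh.10Null minus PBS, 6.32% for AAVrh.10mCherry minus PBS, 7.15% between the vector groups and 10.7% for the mean of both. In AAVrh.10Null minus PBS, 11 of 12 further transporters and 11 of 12 further regulators had an estimate above 0, with medians of 0.25 and 0.41, while 5 of 12 further synthesis genes did, with a median of -0.11; of all genes tested 48.8% were above 0. The smallest unadjusted p there belonged to Abcc2, the canalicular exporter of conjugates (0.68), to Klb, the co-receptor for the gut hormone that lowers bile acid synthesis (0.80), and to Abcg8, a canalicular sterol exporter (0.58). Their adjusted p lay between 0.292 and 0.317. In AAVrh.10mCherry minus PBS the corresponding genes were Nr5a2, an activator of Cyp7a1 and Cyp8b1 (0.60), Klb (0.73) and Nr1i3, the receptor CAR (0.78), each with an adjusted p of 0.735. Mouse 6 had the highest level of all livers for these 3 genes, with Nr5a2 at 85.5 CPM against at most 73.5 CPM elsewhere, Klb at 25.9 CPM against 20.8 CPM and Nr1i3 at 241.8 CPM against 138.9 CPM. Between the vector groups they were Mafg, a repressor of bile acid synthesis genes in mice (-0.72), Akr1d1, the steroid ring reductase (0.74), and Cyp39a1, an oxysterol hydroxylase (1.27), with adjusted p from 0.698 to 0.711; mouse 6 had the highest level of Akr1d1 and Cyp39a1 of all livers. For the mean of both vector groups minus PBS they were Klb (0.76), Abcc2 (0.59) and Nr1i3 (0.63), with adjusted p from 0.412 to 0.465.

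Mouse 6 stood apart from the other 8 livers in several bile acid genes, some of them known to differ between the sexes in mouse liver. Its Cyp8b1 was 0.153 times the median of the other livers, and 52 of the 6517 genes averaging at least 10 CPM had a lower ratio. Of the wider list, chosen here after the values were seen, Cyp7b1 (the oxysterol hydroxylase of the alternative pathway) stood at 22.6 CPM in mouse 6, against 58.4 to 593.3 CPM in the others. Slco1a1, an organic anion uptake carrier higher in male mouse liver, stood at 17.6 CPM against 164.8 to 441.4 CPM. Slco1a4, a related carrier, stood at 136.5 CPM against 19.9 to 56.0 CPM, Cyp39a1 at 59.2 CPM against 6.41 to 17.6 CPM, and Akr1d1 at 202.2 CPM against 48.1 to 154.1 CPM. The 8 male-biased genes summed to 1531 CPM in mouse 6 and to 13050 to 35457 CPM elsewhere. The 8 female-biased genes summed to 446.6 CPM in mouse 6 and to 0.169 to 6.86 CPM elsewhere. Y-linked genes were present in mouse 6, at 194.3 CPM over 4 genes against 120.1 to 215.9 CPM elsewhere, as its label of male calls for. The part of these lists, drawn up after the data were seen, in the low Cyp8b1 of mouse 6 was not tested. The other members of mouse 6, Cyp27a1 excepted, lay within the range of the other livers. Its Cyp27a1 (172.9 CPM) lay under their lowest value of 216.5 CPM.

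**Figure D3:**
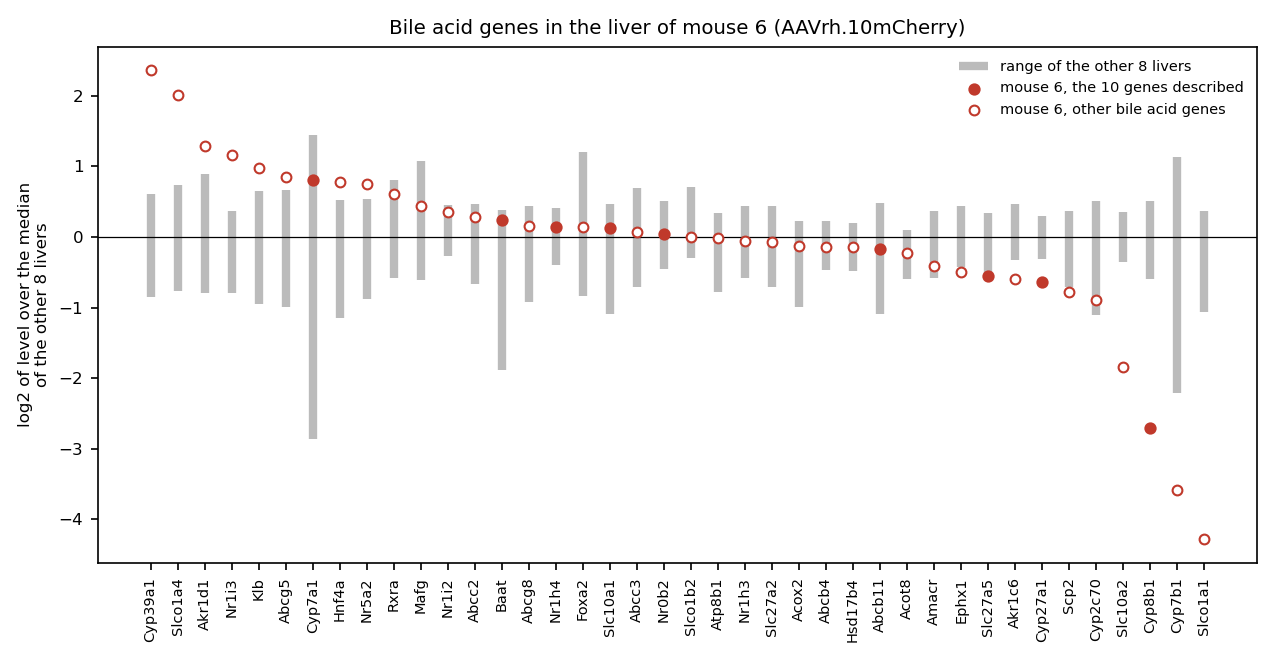
Bile acid genes with a median of at least 10 CPM, as the log2 of mouse 6 over the median of the other 8 livers (points; filled for the 10 genes) beside the range of those 8 livers (grey bars). Cyp8b1, Cyp7b1 and Slco1a1 of mouse 6 lie far below the bars, and Cyp39a1 and Slco1a4 above them.

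The genes with the most similar pattern over the 9 livers differed between members. Likeness was the root mean square difference of mean-centred log2(CPM + 1) values among genes averaging at least 10 CPM. Nearest to Cyp8b1 were C9 (0.34), Cyp2d9 (0.36) and Gstp-ps (0.36), each with its lowest value in mouse 6 (139.1, 156.5 and 80.1 CPM). Nearest to Abcb11 was Sel1l (0.08), with Otud5 (0.12) and Stra6l (0.13) next. Nr1h4 was nearest to Rnf111 (0.10), Zbtb1 (0.11) and Abcc2 (0.12), the last of these being the conjugate exporter named above. Slc27a5 was nearest to Serpind1 (0.10), Creld1 (0.10) and Igfals (0.13), and Cyp27a1 to Mug1 (0.12), Camk1d (0.14) and Ugt2a3 (0.17). Baat lay nearest to Hsd17b7 (0.12), Tollip (0.14) and Adss (0.14), and Slc10a1 to Exoc7 (0.11), Copb1 (0.12) and Rab3ip (0.13); each of these 6, and the 3 nearest to Abcb11, has its lowest value in mouse 7, the shallow library. For Cyp7a1 no gene came close: Slc35g1 (0.63), Dcaf5 (0.65) and Ttc39b (0.65) were nearest, against a spread of 1.22 for Cyp7a1 itself, and these 3 also have their lowest value in mouse 7. Hsd3b7 lay nearest to Actr6 (0.18), Zfp277 (0.18) and Pdia4 (0.18), and Nr0b2 to Adprm (0.17), Rassf7 (0.19) and Dnpep (0.19).

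Within livers, 3 of the genes differed between barcodes rich in markers of the central vein end and of the portal vein end of the lobule. Position itself was not measured. Barcodes with at least 10 UMIs of 20 zone marker genes (none of them one of the 10) were ranked by the share of pericentral markers, and in each liver the upper tercile (pericentral-rich) was compared with the lower (periportal-rich) in a paired edgeR fit over 8 livers; mouse 7, with 37 such barcodes, was left out. Of the 9 genes tested, 1 was higher in pericentral-rich barcodes and 2 were lower, beside 11.2% and 14.1% of the 6818 genes tested. These counts do not set the 9 apart from other genes. Of the genes that chose the barcodes, Glul of the pericentral list stood at 1.61. Hal and Cyp2f2 of the periportal list stood at -1.16 and -0.75. These differences follow from the choice and are no check of it.

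Cyp7a1 rose in pericentral-rich barcodes, by 0.59 (SE 0.16, adjusted p = 0.0174), and was higher there in 8 of 8 livers. It read 64.2, 156.0 and 88.7 CPM in pericentral-rich barcodes of AAVrh.10Null mice 2, 5 and 8, against 51.9, 126.0 and 14.7 CPM in periportal-rich ones. In AAVrh.10mCherry mice 3, 6 and 9 it read 18.0, 112.9 and 69.4 CPM against 9.73, 65.9 and 57.9 CPM. PBS mice 1 and 4 gave 32.3 and 72.0 CPM against 21.4 and 62.6 CPM. The gap was widest in mouse 8, whose periportal-rich barcodes were also deeper (median 943 UMIs in pericentral-rich and 1426 in periportal-rich barcodes); without that liver the difference was 0.49 (adjusted p = 4.40e-06).

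Slc27a5 and Abcb11 fell in pericentral-rich barcodes in 8 of 8 livers. The difference of Slc27a5 was -0.41 (SE 0.07, adjusted p = 0.000187), with a median over livers of 384.0 CPM in pericentral-rich and 504.3 CPM in periportal-rich barcodes. For Abcb11 it was -0.39 (SE 0.06, adjusted p = 8.9e-07), with 224.1 CPM in pericentral-rich and 305.5 CPM in periportal-rich barcodes. Alb, the main secreted product of hepatocytes, was also lower there, by a smaller amount (-0.21, SE 0.06). Other genes of the hepatocyte list went the other way. Ttr was higher in pericentral-rich barcodes in 8 of 8 livers (0.20, adjusted p = 0.000874). Apoa1 was higher in 7 of 8 livers and did not pass (0.11, adjusted p = 0.108). Slc10a1 (0.13, adjusted p = 0.0592) and Baat (0.13, adjusted p = 0.0747) had estimates above 0 and did not pass; with at least 5 zone UMIs per barcode both passed. Cyp8b1 (-0.06, 95% interval -0.18 to 0.06), Nr1h4 (-0.06), Nr0b2 (0.07) and Cyp27a1 (0.08) were close to even. In mouse 6, Cyp8b1 was low in both zones, at 34.6 CPM in pericentral-rich and 33.7 CPM in periportal-rich barcodes. Over whole libraries, pericentral markers summed to 3700, 6029 and 2560 CPM in AAVrh.10Null, 5616, 7414 and 8703 CPM in AAVrh.10mCherry and 7018, 4398 and 3096 CPM in PBS livers. In that order, periportal markers summed to 5353, 4899 and 5489 CPM, 3941, 5113 and 4103 CPM, and 4171, 5009 and 4730 CPM. The part of these sums in the group differences of Slc27a5 and Abcb11 was not tested.

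**Figure D4:**
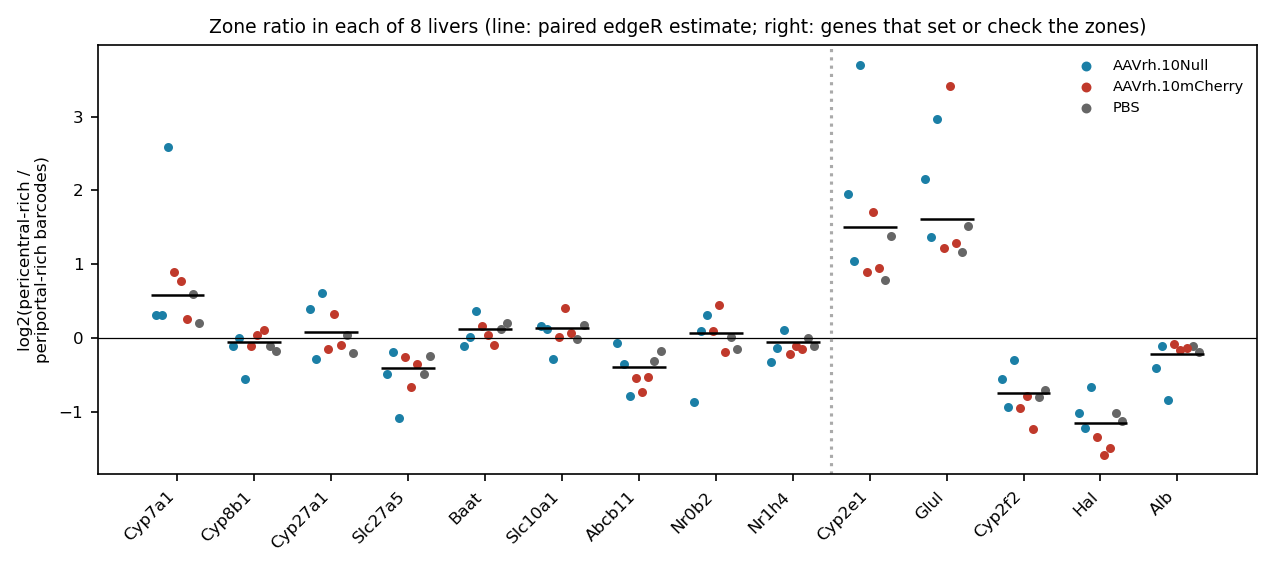
Log2 ratio of pericentral-rich over periportal-rich barcodes for 9 of the genes (left of the dotted line) and for zone and hepatocyte genes (right), with 1 point for each of 8 livers coloured by group and a line at the paired edgeR estimate. All points of Cyp7a1 lie above 0 and all points of Slc27a5 and Abcb11 below.

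Barcodes that carried markers of non-parenchymal cells held less of the genes, but not none. These barcodes, with UMIs of at least 3 different genes of 1 cell type list, numbered 33 to 235 per liver. In a paired edgeR fit over 9 livers, 8 of 8 tested genes were lower in them than in the other barcodes, from -0.44 for Nr1h4 to -0.91 for Abcb11, and 0 were higher; of all 3584 genes tested 30.6% were lower and 29.5% higher. Without composition scaling the median of all genes here stood at 0.19. Cyp7a1 and Hsd3b7 were too sparse to test. Alb was lower by a like amount (-0.98), while Stab2, a gene of sinusoidal endothelium (5.81), and Clec4f, a Kupffer cell gene (5.68), were higher. The barcodes were chosen by markers of such cells, Clec4f among them, so these rises follow from the choice and are no check of it. Slc27a5 had a median of 293.6 CPM in these barcodes and 489.1 CPM in the others, and over livers its median ratio was 61.6%, beside 64.4% for Alb. A hepatocyte product such as Alb should be lacking in these cell types, so no expression there is read from the values of the 8 tested genes. No doublet caller was run, and the source of these UMIs was not tested. Median depth per liver ran from 358 to 2064 UMIs in these barcodes and from 388 to 1989 UMIs in the others. The results for Nr0b2 (-0.49, adjusted p = 0.0163) and Nr1h4 (adjusted p = 0.0203) were lost without mouse 2 or without composition scaling, and that of Nr1h4 also without mouse 4 or mouse 9. The sizes were larger without the low-count filter, at -1.02 for Nr1h4 and -1.49 for Abcb11.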

How the data were processed

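Drop-seq transcript counts of 9 livers were analysed, 1 library per mouse, grouped by the treatment in the labels. The deposited tables hold raw UMI counts, whole numbers per gene and cell barcode, 1 table per liver. Per the submitters' processing notes the build was mm10 and Seurat was used; aligner, counter and their settings are not given in the sources used here. Genes missing from a table were taken as 0. Barcodes with at least 200 genes were kept; no doublet caller was run, since barcodes were summed per liver, and doublets stay in the sums.

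Counts were summed per liver and tested with edgeR 4.0.16 (R 4.3.3; filterByExpr, TMM, quasi-likelihood, all 9 livers in one fit; threshold 0.05). Zone and non-parenchymal classes were summed per liver and fitted with the liver as a block, leaving out classes under 20 barcodes. DESeq2 1.42.0, limma-voom 3.58.1, other filters and leaving out livers were alternatives. The scripts were tested on simulated data. Intervals of levels are exact Poisson at 95% and, like the limit of 3 UMIs for a count of 0, cover counting error only. The differences carry intervals from the fit's own degrees of freedom.

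The 10 genes and the lists were chosen with earlier results of these data known, and the sex-biased and Y-linked lists after their values were seen. Named in each comparison were all 10 genes, and genes of the wider list past the threshold or, if fewer than 3 passed, the 3 with the smallest p. No 2 libraries were alike within sampling noise. Promoters came from RefSeq. Mice are separate animals, each with its own library, so p-values between groups measure the spread between animals and libraries together. In the zone and non-parenchymal fits, with the liver as a block, p-values measure how class differences vary from liver to liver.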

Additional observations from a re-analysis of the deposited data

Results flagged for a closer look

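The barcodes with fewer than 200 genes, which no comparison used, held reads of these genes in 2 livers. In mouse 7 (PBS) the 3050 barcodes left out carried 919 UMIs of the 10 genes among 791753 UMIs, a summed level of 1161 CPM, above the 3.79 CPM that a count of 0 would allow. In mouse 6 (AAVrh.10mCherry) 17 such barcodes carried 7 UMIs among 7987, or 876 CPM, above a limit of 376 CPM. The other 7 livers had 0 of 1 to 89 UMIs left out. Alb stood at 45951 CPM in the barcodes left out of mouse 7 and at 45916 CPM in those kept.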

How the results depend on the processing

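No paired analysis was possible because the mouse numbers are not shared between the groups. The count of these genes called between groups was 0 under each of the 20 alternatives for the pairs of groups and of the 19 for the mean of both vector groups. Counts over all genes moved more. For AAVrh.10Null minus PBS 244 passed without the low-count filter, 44 by DESeq2 and 131 with barcodes of at least 500 genes. AAVrh.10mCherry minus PBS gave 21, 2 and 0 in these settings, the mean of both minus PBS 78, 7 and 0, and AAVrh.10mCherry minus AAVrh.10Null 65, 0 and 2. By limma-voom 0 passed in each. Between zones 5 genes passed with at least 5 zone UMIs per barcode, and 3 to 4 when 1 liver was left out. Between non-parenchymal-marker and other barcodes 6 to 9 passed when 1 liver was left out. The alternatives without mice 6 and 7 and with scaled levels were chosen after seeing the data. Without mice 2 and 8 the AAVrh.10Null group is mouse 5 alone, assumed to vary like the other groups.

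Signs turned only in differences that passed no threshold, and the cause was not tested. Without TMM, Slc10a1 was 0.067 in AAVrh.10mCherry minus PBS and Nr1h4 was 0.0075 in AAVrh.10mCherry minus AAVrh.10Null. By limma-voom, Hsd3b7 was -0.093 and Slc10a1 0.028 in AAVrh.10Null minus PBS, and Slc10a1 was 0.063 in AAVrh.10mCherry minus PBS. With barcodes of at least 500 genes, Baat was -0.098 in AAVrh.10Null minus PBS. Without mice 2 and 8, Cyp8b1 was 0.093, Slc10a1 0.26 and Nr0b2 0.032 in AAVrh.10Null minus PBS, and Hsd3b7 was -0.27, Baat -0.083 and Slc10a1 -0.32 in AAVrh.10mCherry minus AAVrh.10Null. Without mice 6 and 7, Baat was -0.23 in AAVrh.10Null minus PBS. Cyp7a1 was then -0.29, Baat -0.0047 and Abcb11 -0.067 in AAVrh.10mCherry minus PBS, and Slc10a1 was -0.015 in AAVrh.10mCherry minus AAVrh.10Null.

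Leaving out 1 liver at a time gave these ranges where a sign turned. In AAVrh.10Null minus PBS, Slc10a1 ran from -0.41 to 0.31, Nr0b2 from -0.40 to 0.22, Hsd3b7 from -0.26 to 0.51, Cyp8b1 from -0.21 to 0.11 and Baat from -0.23 to 0.45. In AAVrh.10mCherry minus PBS, Slc10a1 ran from -0.41 to 0.31, Hsd3b7 from -0.0017 to 0.77, Cyp7a1 from -0.061 to 1.14, Baat from -0.023 to 0.65 and Abcb11 from -0.13 to 0.31. In AAVrh.10mCherry minus AAVrh.10Null, Slc10a1 ran from -0.14 to 0.19, Hsd3b7 from -0.0056 to 0.55 and Cyp7a1 from -1.07 to 0.029. Depth limits Hsd3b7 in each liver and all 10 genes in mouse 7.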
